A study of Mus musculus with 100 samples.

Results

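The genes described here are 29 genes of cholesterol and fatty acid synthesis, out of 24206 named genes. They were chosen by symbol from knowledge of the pathways, with earlier results of these data known. Their mRNA levels were followed in V6.5 cells, a mouse embryonic stem line of hybrid strain background that was grown on fibroblast feeders and depleted of them before transfection. In each group 1 subunit of TFIID, Mediator or SAGA was lowered by a short hairpin RNA (shRNA), in order, per the design text, to find the subunits that contribute most to transcription. All groups, controls included, were grown with 15% fetal bovine serum and LIF at 1000 U/ml, received 1.8 µg of plasmid by lipofection, and were selected for 72 h in puromycin at 1 µg/ml that was added after 24 h. There were 47 knockdowns and 3 groups with a control shRNA plasmid, each with 2 libraries, 100 libraries in all. Each control label names the knockdowns it serves, which gives 3 sets. Set A holds 15 TFIID subunits with Med15, Med16, Med23, Med24 and Med25 of the Mediator tail. Set B holds 23 Mediator subunits with Gcn5 (gene Kat2a) and Usp22 of SAGA, and set C holds Med1 and Med14. The label of control B can also be read to cover Med1 and Med14.

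Cholesterol is made from acetyl-CoA through mevalonate, farnesyl diphosphate, squalene and lanosterol. Fatty acids are made from the same precursor, which ATP citrate lyase supplies, by acetyl-CoA carboxylase and fatty acid synthase. Most of these enzymes are induced by the sterol regulatory element binding proteins (SREBPs), which Srebf1 and Srebf2 encode. When sterols are plentiful, INSIG proteins hold the SREBP precursors in the endoplasmic reticulum, and when sterols fall the precursors are cleaved and enter the nucleus. MED15, a tail subunit of Mediator, binds SREBP in human cells and its homologue does so in Caenorhabditis elegans, and the CDK8 kinase with cyclin C (gene Ccnc) is known to phosphorylate nuclear SREBP in the mouse and in Drosophila.

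SREBPs bind promoters beside the factors NF-Y, which recognises CCAAT, and Sp1, which recognises GGGCGG. Upstream sequence is shown for Insig1, Msmo1, Cyp51 and Idi1, which were among the members higher in control C than in control B, and for Fasn and Elovl6, which were called lower in several knockdowns. Each line gives the 220 bases before the annotated start in RefSeq (GRCm38.p6), written 5′ to 3′ on the strand of the gene, with CCAAT or its reverse complement ATTGG in capitals. The positions are chr5:28071192-28071411 (+ strand) for Insig1, chr8:64733579-64733798 (- strand) for Msmo1, chr5:4104698-4104917 (- strand) for Cyp51, chr13:8885386-8885605 (+ strand) for Idi1, chr11:120824548-120824767 (- strand) for Fasn and chr3:129532166-129532385 (+ strand) for Elovl6.
Insig1: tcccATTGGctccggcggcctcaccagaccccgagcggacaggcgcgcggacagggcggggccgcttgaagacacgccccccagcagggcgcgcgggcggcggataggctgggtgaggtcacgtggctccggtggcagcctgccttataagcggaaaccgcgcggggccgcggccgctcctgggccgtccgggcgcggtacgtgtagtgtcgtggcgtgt
Msmo1: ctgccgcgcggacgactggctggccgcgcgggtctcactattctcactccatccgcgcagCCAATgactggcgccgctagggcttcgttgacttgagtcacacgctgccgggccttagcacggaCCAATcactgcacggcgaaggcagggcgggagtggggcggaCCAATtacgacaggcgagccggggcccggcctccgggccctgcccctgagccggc
Cyp51: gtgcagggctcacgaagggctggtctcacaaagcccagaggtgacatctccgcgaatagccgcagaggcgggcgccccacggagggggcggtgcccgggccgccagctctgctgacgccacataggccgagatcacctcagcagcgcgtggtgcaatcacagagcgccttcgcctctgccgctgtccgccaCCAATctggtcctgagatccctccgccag
Idi1: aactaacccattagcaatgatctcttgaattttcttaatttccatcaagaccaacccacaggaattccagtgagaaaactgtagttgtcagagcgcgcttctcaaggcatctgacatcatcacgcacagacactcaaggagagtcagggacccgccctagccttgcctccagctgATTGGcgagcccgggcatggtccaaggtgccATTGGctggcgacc
Fasn: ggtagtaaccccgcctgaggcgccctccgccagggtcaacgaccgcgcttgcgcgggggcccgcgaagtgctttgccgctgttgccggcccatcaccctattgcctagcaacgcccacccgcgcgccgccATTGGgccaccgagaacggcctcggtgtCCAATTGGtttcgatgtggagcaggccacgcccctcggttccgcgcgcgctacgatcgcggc
Elovl6: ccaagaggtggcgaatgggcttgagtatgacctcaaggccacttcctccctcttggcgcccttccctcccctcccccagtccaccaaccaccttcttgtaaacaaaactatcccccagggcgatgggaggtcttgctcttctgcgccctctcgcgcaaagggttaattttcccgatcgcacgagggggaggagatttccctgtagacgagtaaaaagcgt
The printed stretch held 3 matches in Msmo1, 3 in Fasn (of which 2 overlap), 2 in Idi1, 1 in Insig1, 1 in Cyp51 and 0 in Elovl6. The RefSeq table gave a promoter for 22 of the 29 members; Fdps, Fdft1, Sqle, Stard4, Scd1, Scd2 and Fads1 were not among them. CCAAT on either strand lay in the 250 bases before a start of 18 of these 22 genes and of 37.5% of the 27025 genes in the table, a gene with several starts being counted once. GGGCGG on either strand was found for 18 of 22 members and 35.4% of all genes, the E-box CACGTG for 4 of 22 and 6.86%, and the sterol element TCACNCCAC for 1 of 22 (Hmgcs1) and 1.22%. The 4 members with a promoter in the table and no CCAAT were Elovl6, Acaca, Acly and Fads2. These matches describe letters in a window and say nothing about binding.

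Depth, from the smallest steps between values, was 17.3 to 39.3 M reads per library. The targeted transcript stood at a median of 26.6% of its control in set B replicate 1 (range 14.23% to 60.45%) and 27.3% in replicate 2 (14.45% to 68.89%). In set A it stood at 34.1% (range 15.9% to 59.0%) in the libraries labelled replicate 2 but at 102% (56.9% to 173%) in those labelled replicate 1, so set A was read from replicate 2 and each of its knockdowns rests on 1 library. Set C also went against its labels, as described with its values. Embryonic stem cell markers (8 genes) summed to 1201 to 2124 RPKM in the 6 control libraries, and fibroblast feeder markers (8 genes) to 1.23 to 3.02 RPKM. Levels are RPKM, reads per kilobase of transcript scaled to library depth, so genes can be compared per length. Hmgcs1, which makes the precursor of mevalonate, was listed at 0 in all 100 libraries for both of its transcripts and is left out from here on. The other 28 members all passed the filter on low values, at least 1 RPKM in at least 2 libraries, as did 12974 genes in all.

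The members spanned a wide range of levels in control B, from 1.66 and 1.76 RPKM for Hsd17b7, a sterol keto-reductase, to 58.3 and 56.4 RPKM for Acly, ATP citrate lyase. Fasn, fatty acid synthase, stood at 50.2 and 48.9 RPKM and Srebf2 at 36.2 and 34.0 RPKM. Elovl6, which elongates saturated fatty acids, stood at 26.9 and 28.0 RPKM. Srebf1 was lower than Srebf2, at 9.50 and 8.98 RPKM.

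Across the 25 set B knockdowns, synthesis genes were more often called above control B than below it, with counts that varied by step of the pathway. Each knockdown was compared with the same 2 control B libraries by limma on log2(RPKM + 1). A gene counted as called where its p, adjusted by Benjamini-Hochberg over all genes tested, was under 0.05. Because all 25 comparisons share these 2 libraries, their counts are not independent of each other. Where the pair of 1 knockdown is said to lie outside both controls, the share of all genes that did so is not given. Of 700 member values, 215 (30.7%) were called higher and 69 (9.86%) lower, where all genes gave 15.6% and 15.0%. The counts depend on the reference and the fit: against the other 24 knockdowns in place of control B they were 157 higher and 145 lower, and in 1 fit of all 100 libraries 39 and 11. The share of all genes called in those alternatives is not given here, so their counts have no background. Against control B in the main fit, the desaturases were called higher in 54 of 100 values and lower in 7. Scd2 gave 24 and Scd1 20 of the 54, Fads2 was called higher in 9 knockdowns and lower in 1, and Fads1 higher in 1 and lower in 5. The regulators Insig1, Srebf1 and Srebf2 were called higher in 35 of 75 values and lower in 1. The 11 genes from squalene to cholesterol were called higher in 81 of 275 values and lower in 15. The 5 mevalonate genes were called higher in 25 of 125 values and lower in 7. The 4 fatty acid synthesis genes were called higher in 11 of 100 values and lower in 39, of which Elovl6 gave 22. Acly was called higher in 8 knockdowns and lower in 2. More members were called higher than lower in 23 knockdowns, and the opposite held in 2, shMed7 and shMed19. The margin was only 3 against 2 in shMed6, shMed13 and shMed18, and shMed6 gave 0 against 1 without its replicate 1. For all genes the balance differed by knockdown. More of them were called higher than lower in shGcn5 (20.1% and 12.4%), for example, and fewer in shMed12 (26.9% and 31.1%).

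**Figure D1:**
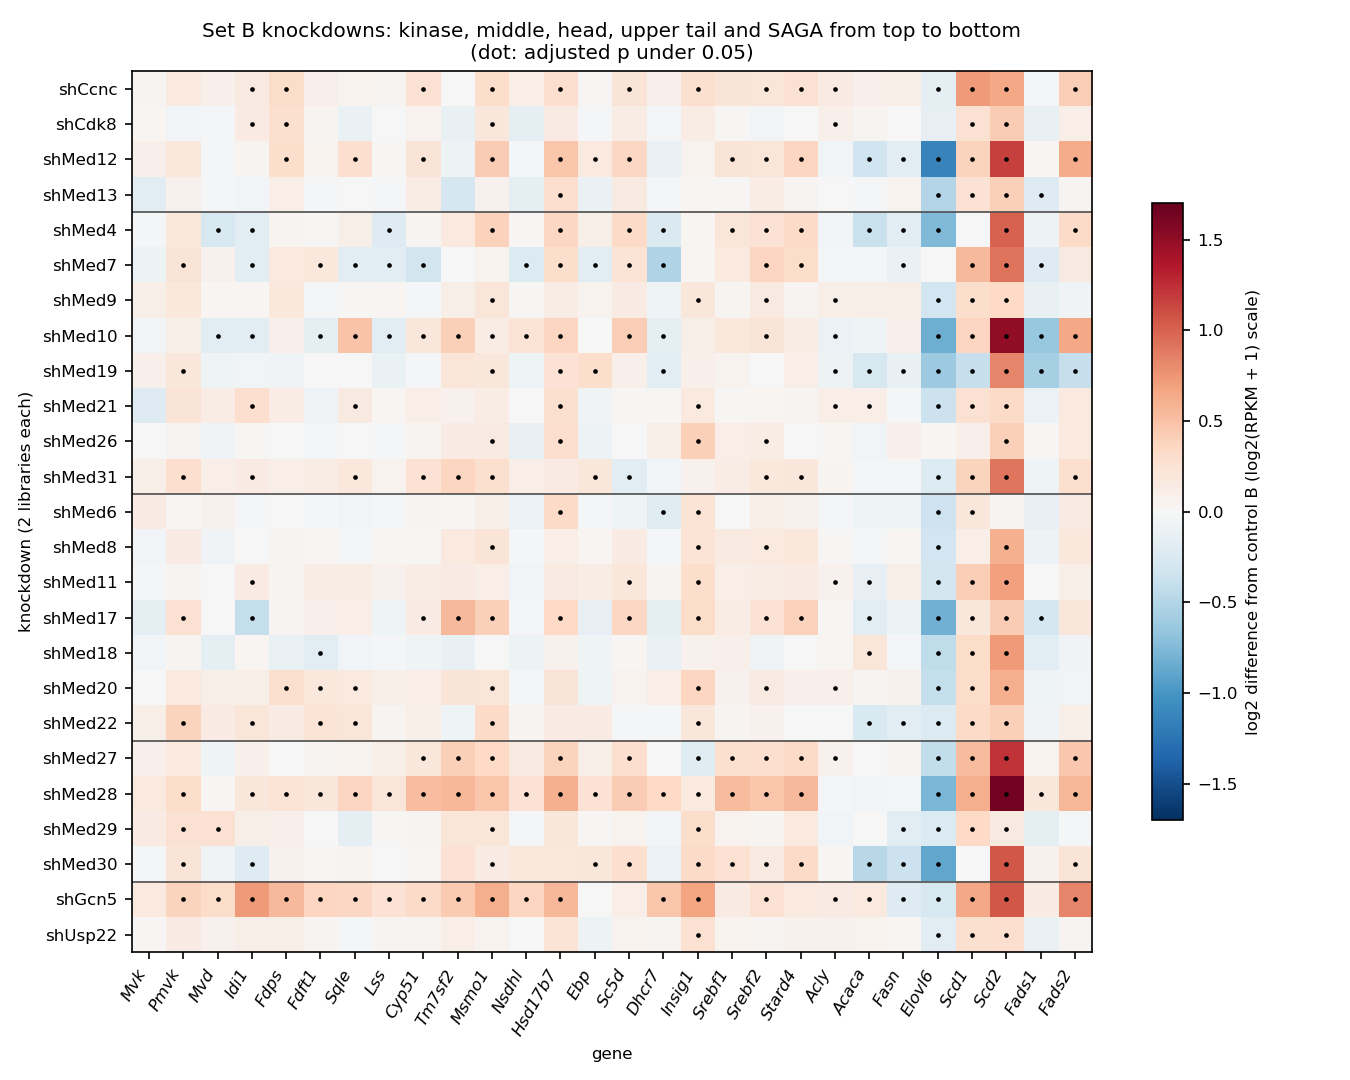
Difference of each gene (columns, in pathway order) from control B in each of 25 set B knockdowns (rows, grouped by module), as colour on the log2(RPKM + 1) scale; a dot marks an adjusted p under 0.05. The Scd2 column is red in all rows but shMed6, the Elovl6 column is mostly blue, and the rows shMed28 and shGcn5 carry the most red dots, 22 and 20.

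Scd2, a stearoyl-CoA desaturase that makes monounsaturated fatty acids, had the widest range. Its control B level was 15.9 and 15.6 RPKM, and the 50 knockdown libraries ran from 16.1 (shMed6) through a median of 25.4 to 52.1 RPKM (shMed28). All 50 libraries lay above both control B libraries, a pattern shared by 0.732% of all genes. Scd2 was called higher in 24 of 25 knockdowns, with log2 differences from 0.16 (shMed29) to 1.64 (shMed28), and shMed6 at 0.05 did not pass. Its spread between knockdowns was 14.2 times that within pairs, against a median of 2.01 for all genes. Control A, from the other set, was at 19.2 and 18.6 RPKM, and 46 of the 50 libraries lay above both of its libraries.

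Elovl6 was the counterpart. The 50 knockdown libraries ran from 11.9 (shMed12) through a median of 21.4 to 29.2 RPKM (shMed26), and 46 of them lay below both control B libraries. It was called lower in 22 of 25 knockdowns, most in shMed12 at -1.13, shMed30 at -0.88 and shMed10 at -0.82 on the log2 scale, and shCdk8, shMed7 and shMed26 did not pass. The control matters for this gene. Control A stood at 21.18 and 19.96 RPKM, lower than control B, and 16 of the 50 libraries lay below both control A libraries while 27 lay above both.

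**Figure D2:**
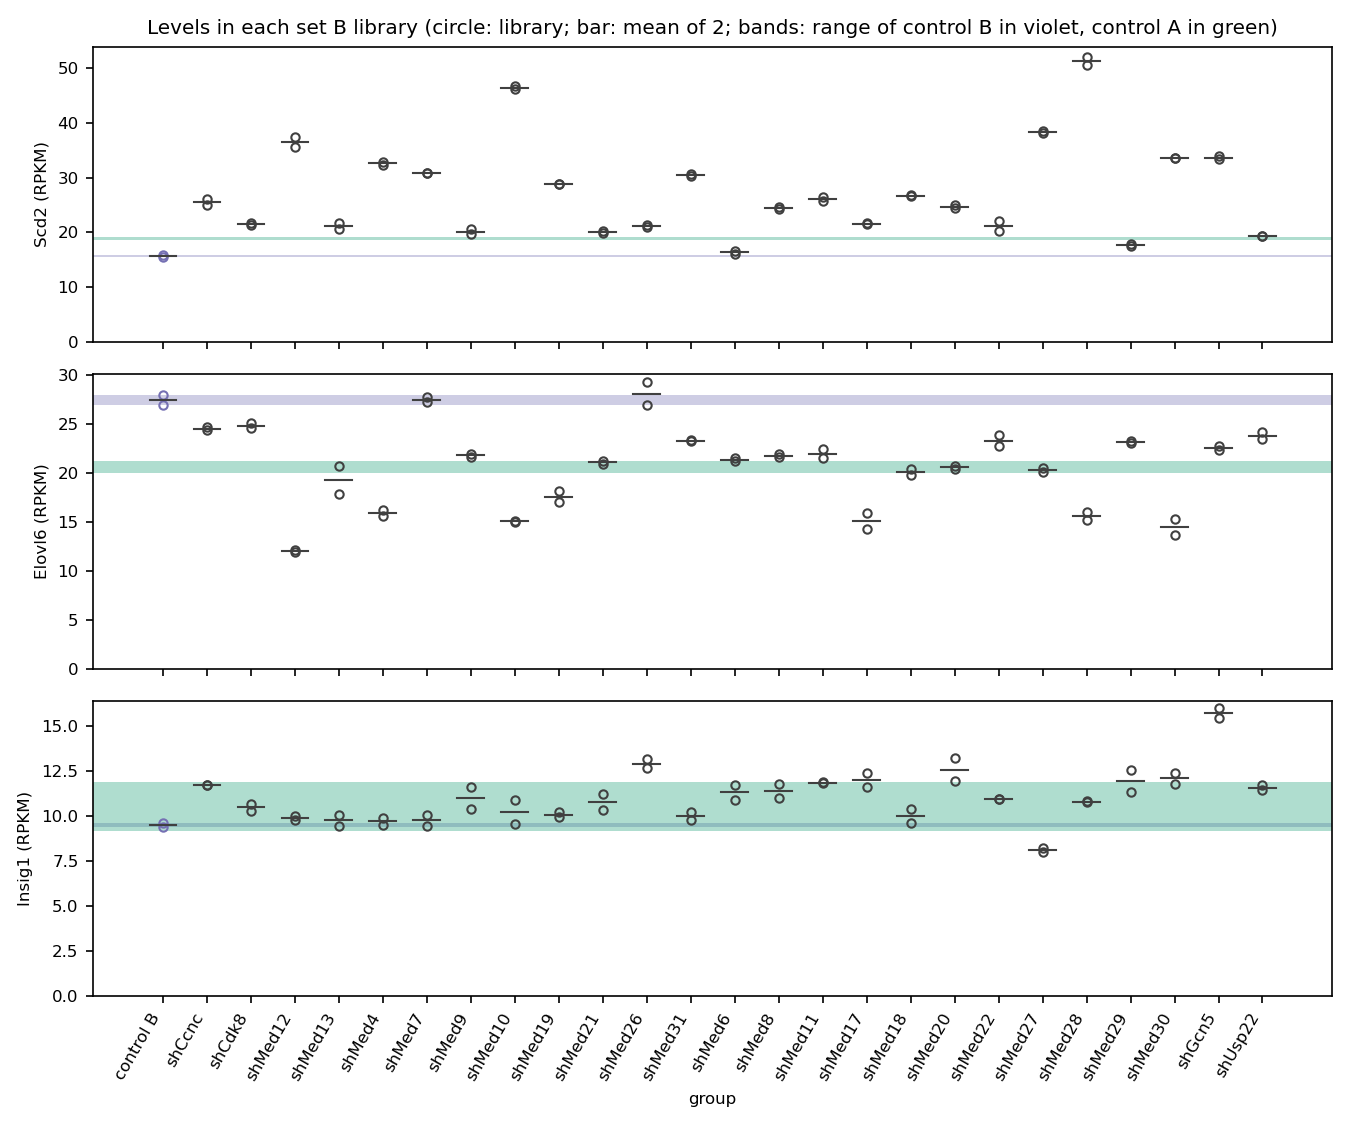
Scd2, Elovl6 and Insig1 in each set B library (circles, RPKM, axes from 0; short bars are means of 2), with the range of control B as a violet band and of control A as a green band. Scd2 exceeds both bands in 46 libraries, Elovl6 lies under control B in 46 libraries but under control A in 16, and for Insig1 shGcn5 stands above the rest.

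Other members were called in many knockdowns with smaller differences. Scd1, the sister desaturase, was called higher in 20 knockdowns and lower in 1, shMed19. Msmo1, a methylsterol oxidase, was called higher in 18 and lower in 0, with 49 of 50 libraries above both controls. Insig1 was called higher in 15 knockdowns and lower in 1, shMed27 at -0.20. Srebf2 was called higher in 15 knockdowns and Hsd17b7 in 14, neither of them lower in any. Fasn, in contrast, was called lower in 8 and higher in 0, and Acaca, acetyl-CoA carboxylase, lower in 7 and higher in 3. Mvk, mevalonate kinase, was called in no knockdown, with limma log2 differences between -0.22 and 0.17. The other members were called in 4 (Mvd and Nsdhl) to 13 (Idi1) knockdowns.

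The Gcn5 knockdown was 1 of the 2 with the most members called higher. Gcn5, the acetyltransferase of SAGA, is encoded by Kat2a, which fell to 16.4% and 18.5% of control B. In shGcn5 20 of 28 members were called higher and 2 lower, where 20.1% and 12.4% of all genes were, and the median member differed by 0.34 against 0.04 over all genes (log2). Scd2 measured 34.0 and 33.3 RPKM (log2 difference 1.05 ± 0.03 SE, adjusted p = 1.00e-21). Fads2, the desaturase that opens the synthesis of polyunsaturated fatty acids, measured 16.8 and 15.5 RPKM against 8.51 and 8.80 in control B (0.83 ± 0.08, adjusted p = 1.01e-09). Both were clear of the controls. Idi1, isopentenyl diphosphate isomerase, measured 15.7 and 15.4 RPKM against 8.98 and 9.02 (0.72 ± 0.04, adjusted p = 7.66e-15). Insig1 measured 16 and 15.4 RPKM against 9.37 and 9.60 (0.67 ± 0.06, adjusted p = 1.14e-10). These were the highest means of Idi1, Insig1 and Fads2 over the 25 knockdowns. Srebf2 rose by 0.26 ± 0.05 (43.0 and 41.7 RPKM, adjusted p = 6.78e-05). Srebf1 at 10.6 and 9.99 RPKM did not pass (0.14 ± 0.08, adjusted p = 0.211). Elovl6 (22.3 and 22.7 RPKM, -0.28) and Fasn (44.1 and 40.5 RPKM, -0.22 ± 0.05, adjusted p = 3.82e-04) were called lower. Among related genes, 3 of 4 of the SREBP processing machinery were called higher, led by the site protease Mbtps2 (0.38 ± 0.05). Of 16 other lipid synthesis genes 4 were called higher, among them Acss2, acetyl-CoA synthetase (0.44 ± 0.08), and 2 lower. Abca1, the cholesterol exporter, was lower (-0.51 ± 0.06), as was Cpt1a, which admits fatty acids to mitochondrial oxidation (-0.48 ± 0.06). Of the cell markers in shGcn5, 4 of 8 stem cell markers were called lower and 1 higher, 4 of 6 primitive endoderm markers higher and 1 lower (sum 40.9 to 43.5 RPKM against 35.9 to 36.6 in control B), and 2 of 6 trophectoderm markers higher and 1 lower (147 to 149 RPKM against 126 to 130). Here and in the other set B knockdowns, the part of such markers in the results was not tested.

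The Med28 knockdown had the other high count, with 22 members called higher and 1 lower where 31.7% and 27.0% of all genes were called (median member 0.28, all genes 0.02). Med28 itself fell to 19.5% and 19.8% of control B. Scd2 reached 52.1 and 50.6 RPKM (1.64 ± 0.03, adjusted p = 1.53e-27), the highest of the series outside set C. Scd1 measured 5.46 and 4.96 RPKM against 3.09 and 2.99 in control B (0.62 ± 0.07, adjusted p = 1.48e-09). Hsd17b7 measured 3.01 and 3.25 RPKM against 1.66 and 1.76 (0.61 ± 0.08, adjusted p = 8.09e-08). Each pair was above both controls. Fads2 measured 13.6 and 13.1 RPKM (0.57 ± 0.08, adjusted p = 3.08e-07). Both SREBP genes rose here, Srebf1 at 14.5 and 13.1 RPKM (0.53 ± 0.08, adjusted p = 2.59e-06) and Srebf2 at 51.4 and 46.8 RPKM (0.47 ± 0.05, adjusted p = 6.68e-10). Insig1 rose less, at 10.8 and 10.8 RPKM (0.17 ± 0.06, adjusted p = 0.0136). Elovl6 fell to 16.04 and 15.21 RPKM (-0.78 ± 0.05, adjusted p = 2.54e-14). All 11 squalene and sterol genes were called higher. So were all 4 genes of the SREBP processing machinery, led by Mbtps2 (0.42 ± 0.05). Acsl3, an acyl-CoA synthetase (0.77 ± 0.05), led the 7 of 16 other lipid synthesis genes called higher against 3 lower, and Soat1, which esterifies cholesterol, was also higher (0.79 ± 0.04). In the same libraries all 8 embryonic stem cell markers were called lower and their sum was 893 to 902 RPKM against 1570 to 1616, while the trophectoderm markers summed to 400 to 431 RPKM.

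The 3 knockdowns with the most members called lower were in the middle module: shMed7, and shMed10 and shMed19 with equal counts. Many genes of any kind were called lower in them, 25.3%, 33.4% and 25.7%, against 15.0% over the 25 knockdowns pooled. In shMed7 9 members (32.1%) were called lower and 8 (28.6%) higher, where 25.3% and 19.8% of all genes were. Of the 9 called lower, 6 were squalene and sterol genes. Dhcr7, the last reductase of the pathway, measured 5.52 and 4.78 RPKM against 7.90 and 7.59 (-0.51 ± 0.07, adjusted p = 4.23e-07). Cyp51, lanosterol demethylase, measured 5.54 and 5.87 RPKM against 7.45 and 7.21 (-0.31 ± 0.05, adjusted p = 7.80e-06). Both lay below the controls. Nsdhl, a sterol dehydrogenase, measured 4.06 and 5.05 RPKM (-0.23 ± 0.09, adjusted p = 0.0259), and Fads1, another polyunsaturated fatty acid desaturase, 7.81 and 7.55 RPKM (-0.22 ± 0.06, adjusted p = 0.00434). Scd2 rose by 0.93 ± 0.03 (30.8 and 30.8 RPKM, adjusted p = 8.19e-21) and Scd1 by 0.55 ± 0.07 (5.17 and 4.68 RPKM, adjusted p = 2.91e-08). Srebf2 rose by 0.37 ± 0.05 (46.1 and 45.3 RPKM, adjusted p = 1.57e-07) and Stard4, a sterol carrier, by 0.31 ± 0.07 (6.27 and 7.16 RPKM, adjusted p = 5.00e-04). Insig1 at 10.1 and 9.45 RPKM (0.04 ± 0.06) and Srebf1 at 11.1 and 10.0 RPKM (0.17 ± 0.08) did not pass. Without control B replicate 1, 5 members were called lower in place of 9, and without shMed7 replicate 2, 5 were called higher in place of 8. Lpin1, a phosphatidate phosphatase, was higher (0.74 ± 0.05) and Acsl4, an acyl-CoA synthetase, lower (-0.51 ± 0.05), among 4 of 16 other lipid synthesis genes called higher and 6 lower. Of the stem cell markers 6 of 8 were called lower and 1 higher (sum 1119 to 1159 RPKM), and of the trophectoderm markers 5 of 6 higher (187 to 188 RPKM).

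In shMed10 11 members were called higher and 8 lower, where 31.2% and 33.4% of all genes were, so the members' shares were near the background. Scd2 stood at 46.7 and 46.2 RPKM (1.503 ± 0.03, adjusted p = 5.61e-27). Fads2 stood at 14.1 and 14.4 RPKM (0.66 ± 0.08, adjusted p = 1.52e-08), while Fads1 fell to 5.17 and 5.78 RPKM from 9.33 and 8.88 (-0.64 ± 0.06, adjusted p = 1.41e-10). The 2 desaturases of the same route thus moved apart. Sqle, squalene epoxidase, rose to 31.02 and 28.14 RPKM from 21.4 and 20.3 (0.48 ± 0.06, adjusted p = 4.61e-09), and Sc5d, a sterol desaturase, to 9.05 and 9.18 RPKM from 7.18 and 6.02 (0.42 ± 0.07, adjusted p = 4.01e-06). Elovl6 fell to 15.1 and 15.0 RPKM (-0.82 ± 0.05, adjusted p = 3.36e-15). Idi1 (7.43 and 8.01 RPKM, -0.20 ± 0.04) and Lss, lanosterol synthase (5.08 and 4.65 RPKM, -0.20 ± 0.05), were also called lower. Srebf2 rose (41.6 and 40.5 RPKM, 0.22 ± 0.05), and Srebf1 (11.3 and 9.93 RPKM, 0.18 ± 0.08) and Insig1 (10.9 and 9.54 RPKM, 0.10 ± 0.06) did not pass. Fatty acid oxidation genes split 5 higher and 4 lower of 9, with Hadhb (-1.21 ± 0.09) and Cpt1a (-1.02 ± 0.06) lowest, and Soat1 was higher (1.17 ± 0.04). Without shMed10 replicate 2, 5 members were called lower in place of 8. All 8 stem cell markers were called lower here (sum 741 to 809 RPKM) and all 6 trophectoderm markers higher (553 to 560 RPKM).

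In shMed19 8 members (28.6%) were called lower and 5 (17.9%) higher, where 25.7% and 22.6% of all genes were. These shares too were near the background. It was the only set B knockdown in which Scd1 and Fads2 were called lower. Scd1 measured 2.08 and 2.07 RPKM (-0.40 ± 0.07, adjusted p = 7.31e-06) and Fads2 7.12 and 5.68 RPKM (-0.39 ± 0.08, adjusted p = 1.40e-04), all below the control libraries. Elovl6 measured 17.0 and 18.2 RPKM (-0.62 ± 0.05, adjusted p = 8.04e-12) and Fads1 5.97 and 5.69 RPKM (-0.56 ± 0.06, adjusted p = 4.61e-09). Scd2 still rose, to 28.8 and 28.8 RPKM (0.83 ± 0.03, adjusted p = 5.32e-20). Ebp, a sterol isomerase, rose to 8.68 and 8.37 RPKM from 6.48 and 6.95 (0.30 ± 0.07, adjusted p = 7.41e-04), with Hsd17b7 (2.34 and 2.11 RPKM, 0.25 ± 0.08) and Pmvk, phosphomevalonate kinase (14.1 and 12.6 RPKM, 0.20 ± 0.08, adjusted p = 0.0447). Insig1 (9.94 and 10.2 RPKM, 0.08 ± 0.06), Srebf1 (10.3 and 9.12 RPKM, 0.06 ± 0.08) and Srebf2 (35.4 and 34.5 RPKM, -0.01 ± 0.05) did not pass. Without control B replicate 1, 5 were called lower in place of 8, and without shMed19 replicate 1, 3 were called higher in place of 5. Of the trophectoderm markers 5 of 6 were called higher (sum 373 to 403 RPKM), and 7 of 8 stem cell markers lower (1141 to 1176 RPKM).

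The kinase module was read with SREBP in view, because its kinase acts on nuclear SREBP. The 4 kinase module knockdowns differed from each other in the number of members called. In shCcnc 13 members were called higher and 1 lower, where 9.22% and 7.22% of all genes were. Scd1 measured 5.84 and 5.50 RPKM (0.72 ± 0.07, adjusted p = 7.85e-10), its highest mean over the 25 knockdowns, and Scd2 26.1 and 24.9 RPKM (0.66 ± 0.03, adjusted p = 7.03e-16). Fads2 measured 12.1 and 11.7 RPKM (0.41 ± 0.08, adjusted p = 2.88e-04) and Fdps, farnesyl diphosphate synthase, 15.5 and 17.5 RPKM against 13.0 and 13.2 (0.31 ± 0.07, adjusted p = 0.00315). All of these lay above both controls. Insig1 rose to 11.7 and 11.7 RPKM (0.28 ± 0.06, adjusted p = 8.59e-04) and Srebf2 to 40.8 and 40.4 RPKM (0.21 ± 0.05, adjusted p = 0.00247), while Srebf1 at 11.3 and 10.6 RPKM did not pass (0.23 ± 0.08, adjusted p = 0.0667). Elovl6, at 24.7 and 24.3 RPKM, was called lower by a small amount (-0.16 ± 0.05, adjusted p = 0.0296), a call lost without any 1 of the 4 libraries (adjusted p 0.056 to 0.208). The SREBP machinery, sterol efflux and fatty acid oxidation lists had no gene called in shCcnc. Of the trophectoderm markers 5 of 6 were called higher and 1 lower (sum 223 to 229 RPKM), and 5 of 8 stem cell markers lower (1394 to 1450 RPKM).

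In shCdk8, the kinase itself, 6 members were called higher and 0 lower, where 9.15% and 6.28% of all genes were; 9 members had an unadjusted limma p under 0.05. Scd2 measured 21.4 and 21.8 RPKM (0.43 ± 0.03, adjusted p = 1.06e-11) and Fdps 16.6 and 15.3 RPKM (0.27 ± 0.07, adjusted p = 0.0126). Scd1 measured 3.94 and 3.73 RPKM (0.26 ± 0.07, adjusted p = 0.00603) and Msmo1 17.51 and 18.04 RPKM against 15.2 and 15.8 (0.19 ± 0.05, adjusted p = 0.00467). These pairs lay above both controls. Insig1 (10.7 and 10.3 RPKM, 0.13 ± 0.06), Srebf1 (9.52 and 9.33 RPKM, 0.03 ± 0.08) and Srebf2 (34.0 and 34.0 RPKM, -0.05 ± 0.05) did not pass. Leaving out shCdk8 replicate 1 or either control B library left 2 to 3 members called in place of 6. Of the cell markers, 1 of 8 for stem cells was called higher, and 2 of 6 for trophectoderm higher and 1 lower (155 to 160 RPKM).

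In shMed12 13 members were called higher and 3 lower, where 26.9% and 31.1% of all genes were. It held the lowest Elovl6 of set B, 12.1 and 11.9 RPKM (-1.13 ± 0.05, adjusted p = 1.74e-18). Acaca measured 4.78 and 4.54 RPKM against 5.85 and 6.46 (-0.34 ± 0.04, adjusted p = 3.63e-08) and Fasn 45.4 and 41.9 RPKM (-0.18 ± 0.05, adjusted p = 0.00151). So 3 of the 4 fatty acid synthesis genes fell, while 3 of the 4 desaturases and 6 of the 11 squalene and sterol genes rose and the others of these lists did not pass. Scd2 measured 37.4 and 35.5 RPKM (1.16 ± 0.03, adjusted p = 4.99e-24) and Fads2 13.6 and 14.2 RPKM (0.63 ± 0.08, adjusted p = 5.29e-08). Hsd17b7 measured 2.67 and 2.87 RPKM (0.48 ± 0.08, adjusted p = 5.11e-06) and Msmo1 21.0 and 21.3 RPKM (0.43 ± 0.05, adjusted p = 2.24e-09). Srebf1 (11.2 and 10.6 RPKM, 0.21 ± 0.08, adjusted p = 0.0297) and Srebf2 (41.6 and 39.4 RPKM, 0.20 ± 0.05, adjusted p = 6.06e-04) rose, and Insig1 at 9.79 and 10.0 RPKM did not pass (0.06 ± 0.06). All 8 stem cell markers were called lower in shMed12, and the trophectoderm markers summed to 649 to 701 RPKM, the highest of set B.

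In shMed13 3 members were called higher and 2 lower, where 8.96% and 11.5% of all genes were. Scd2 (21.6 and 20.6 RPKM, 0.40 ± 0.03, adjusted p = 2.69e-11), Hsd17b7 (2.20 and 2.40 RPKM, 0.28 ± 0.08, adjusted p = 0.0086) and Scd1 (4.03 and 3.53 RPKM, 0.24 ± 0.07, adjusted p = 0.00728) were higher. Elovl6 (17.8 and 20.7 RPKM, -0.49 ± 0.05, adjusted p = 7.26e-09) and Fads1 (7.34 and 8.04 RPKM, -0.22 ± 0.06, adjusted p = 0.0104) were lower, and without shMed13 replicate 1 or control B replicate 1 only 1 of them was called. Insig1 (10.1 and 9.44 RPKM, 0.04 ± 0.06), Srebf1 (10.1 and 8.80 RPKM, 0.03 ± 0.08) and Srebf2 (39.0 and 37.9 RPKM, 0.13 ± 0.05, adjusted p = 0.0572) did not pass. Of the stem cell markers 6 of 8 were called lower (sum 1342 to 1349 RPKM), and of the trophectoderm markers 5 of 6 higher (245 to 262 RPKM).

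As a module, the 4 kinase knockdowns were compared with the 15 head and middle knockdowns, with the mean of 2 libraries per knockdown as the unit. No member and no gene was called by limma. Of the members 2, and of all genes 388, had an unadjusted p under 0.05. The 2 were Fdps, 15.8 against 13.9 RPKM (0.17, 95% interval 0.06 to 0.29, unadjusted p = 0.00501), and Tm7sf2, a sterol reductase, 1.61 against 2.18 RPKM (-0.27, interval -0.47 to -0.08). The 4 upper tail knockdowns (Med27, Med28, Med29, Med30) against the same 15 also gave no call, with 6 members and 772 genes at an unadjusted p under 0.05. The lowest of these was Srebf1 at 11.5 against 10.0 RPKM (0.18, interval 0.06 to 0.30, unadjusted p = 0.00543). Over the members the intervals of these comparisons reached from -0.52 to 0.81, and differences inside them were not detectable with these knockdowns.

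The other set B knockdowns fell between these. In the middle module shMed4, which the design text names as a key subunit, gave 8 members higher and 7 lower, where 29.3% and 31.7% of all genes were called. shMed31 gave 12 and 2 (17.3% and 11.8%), shMed21 gave 8 and 1 (8.42% and 11.4%), shMed9 gave 6 and 1 (4.97% and 4.22%) and shMed26 gave 5 and 0 (16% and 13.0%). Of the head knockdowns shMed17 gave 11 higher and 4 lower (23.1% and 25.1%), with the lowest Idi1 of set B at 6.58 RPKM (-0.40 ± 0.04). shMed20 gave 9 and 1 (5.50% and 5.56%), shMed22 gave 8 and 3 (11.5% and 11.2%), shMed11 gave 6 and 2 (8.69% and 7.41%) and shMed8 gave 4 and 1 (12.5% and 9.58%). shMed6 and shMed18 each gave 3 higher and 2 lower, where 6.08% and 7.64% of all genes were called in shMed6 and 3.75% and 4.73% in shMed18. Med18 itself still stood at 60.45% and 68.89% of control B in shMed18, the weakest knockdown of set B. In the upper tail shMed27 gave 12 and 2 (20.5% and 16.6%), shMed30 gave 10 and 4 (32.7% and 25.4%) and shMed29 gave 6 and 2 (8.76% and 7.33%). shMed30 had the lowest Acaca and Fasn of set B, at 4.15 RPKM (-0.47 ± 0.04) and 38.4 RPKM (-0.36 ± 0.05). shUsp22, the other SAGA knockdown, gave 3 higher and 1 lower (2.34% and 1.79%), the higher ones being Scd1, Scd2 and Insig1. Many of these counts changed when 1 library was left out, which by itself widens the error of the comparison. Without replicate 1 of the knockdown, the higher calls fell from 9 to 4 in shMed20, 8 to 3 in shMed21, 6 to 1 in shMed9, 6 to 3 in shMed11 and in shMed29, 10 to 6 in shMed30, 4 to 2 in shMed8, 3 to 0 in shMed6 and 3 to 1 in shUsp22. Without control B replicate 1 they fell to 4 in shMed21, 6 in shMed30, 3 in shMed26, 0 in shMed6 and 1 in shUsp22. Without control B replicate 2 they fell to 3 in shMed11, and without replicate 2 of the knockdown to 3 in shMed26, with 1 lower. The 2 lower calls became 1 in shMed6 without any 1 library, in shMed11 without replicate 1 or control B replicate 2, in shMed18 and shMed27 without replicate 2 or control B replicate 2, in shMed31 without replicate 2 or control B replicate 1, and in shMed29 without control B replicate 1. The 1 lower call of shUsp22 was lost without any 1 library.

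Med15, the Mediator subunit known to bind SREBP, was targeted in set A. Med15 stood at 7.08 RPKM in the library labelled shMed15 replicate 2 (43.7% of control A) and at 17.0 RPKM in replicate 1 (105%), so the comparison rests on 1 library. It shares its spread with 22 libraries in the limma fit. No member was called in either direction against the 2 control A libraries, where 0.0540% and 0.0385% of all genes were, and 0 members but 659 genes had an unadjusted p under 0.05. A second fit, of 80 libraries with 1 coefficient per group, takes its spread from the pairs of set B, set C and the controls. The set C pairs go against their labels, and no set A knockdown adds to that spread. The share of all genes passing in it is not given here. Of the members, Acaca passed there as lower (-0.43). The median member differed by 0.00 and the median gene by 0.01 (log2). The regulators were near control. Srebf2 measured 34.5 RPKM against 33.5 and 40.1 in control A (-0.09, 95% interval -0.42 to 0.24), and Srebf1 9.49 RPKM against 8.12 and 11.3 (-0.01, interval -0.38 to 0.35), both inside the control range. Insig1 measured 13.2 RPKM against 9.14 and 11.9 (0.32, interval -0.17 to 0.80), above both.

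The members farthest from control A in shMed15 were Acaca and Stard4. Acaca measured 4.22 RPKM against 6.41 and 5.67 (-0.43, interval -0.93 to 0.07), below both. Stard4 measured 6.25 RPKM against 4.26 and 4.63 (0.41, interval -0.12 to 0.95), the highest of the 20 set A replicate 2 knockdown libraries. Elovl6 measured 16.1 RPKM against 21.18 and 19.96 (-0.33, interval -0.87 to 0.20) and Pmvk 13.8 RPKM against 9.59 and 12.2 (0.33, interval -0.04 to 0.69). Mvd, mevalonate diphosphate decarboxylase, was at 14.0 RPKM against 10.6 and 12.2 (0.28, interval -0.10 to 0.65), also the highest of the 20 libraries. The sterol genes Msmo1 (20.4 RPKM against 16.7 and 16.8, interval -0.23 to 0.77), Cyp51 (7.82 against 8.36 and 7.67, interval -0.47 to 0.41) and Sqle (19.1 against 19.3 and 21.3, interval -0.50 to 0.33) did not pass. A typical interval for a member was 0.43 wide on either side, so changes of about that size on the log2 scale were not detectable for most members with 1 library. No member was past 1.5-fold from the control A mean and outside both controls, where 1.37% of all genes were higher and 0.840% lower by that rule.

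Set against other knockdowns, the shMed15 library also gave no member called in the fit of 22 libraries. Against Med16, Med23, Med24 and Med25, the other tail knockdowns of set A (0.0231% of genes called in each direction), the largest member difference was Stard4 (0.44, interval -0.05 to 0.93), and no member but 515 genes had an unadjusted p under 0.05. In the fit of 80 libraries, which takes no spread from set A knockdowns, Stard4 passed here (0.44). The share of all genes passing in that fit is not given here. Scd2 was 20.01 RPKM in shMed15 and 21.3 to 32.4 in the 4 other tail knockdowns (-0.30, interval -0.81 to 0.20). Against the 15 TFIID knockdowns (0.0154% higher, 0.0540% lower) only Mvk had an unadjusted p under 0.05 (5.45 RPKM against a TFIID median of 7.01, -0.28, adjusted p = 0.466), as had 1193 genes. In the fit of 80 libraries, with the same limit, Mvk and Idi1 (-0.28 each) were called lower than in the TFIID knockdowns. None of the SREBP machinery, other lipid synthesis, sterol efflux or fatty acid oxidation genes was called in shMed15 against control A.

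**Figure D3:**
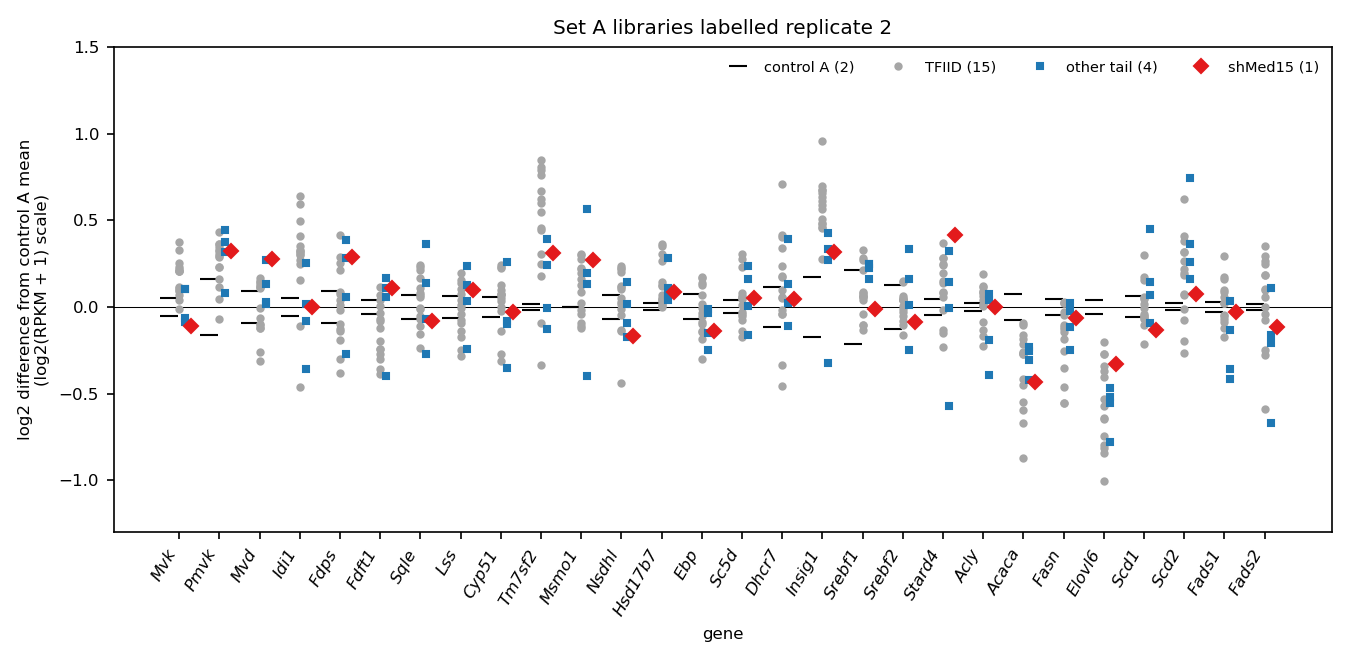
Set A libraries labelled replicate 2: log2 difference of each gene from the mean of control A (black ticks, 2 libraries) for 15 TFIID knockdowns (grey circles), 4 other tail knockdowns (blue squares) and shMed15 (red diamond). The shMed15 points lie between -0.43 and 0.41, within or close to the cloud of the other knockdowns, while Elovl6 and Acaca lie below and Insig1 above control for all TFIID points.

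In the TFIID knockdowns 3 members lay on one side of both control A libraries in all 15 libraries, Insig1 above and Elovl6 and Acaca below. No member was called for the 15 TFIID knockdowns as a group (0.177% of genes higher, 0.0308% lower; 4 members and 1305 genes at an unadjusted p under 0.05). Insig1 ran from 12.8 (shTbp) through 16.2 to 21.2 RPKM (shTaf3), above both control A libraries in 15 of 15 (0.58, interval 0.28 to 0.88, adjusted p = 0.118). Elovl6 ran from 9.74 (shTaf12) through 13.5 to 17.8 RPKM (shTaf4), below both in 15 of 15 (-0.56, interval -0.89 to -0.23, adjusted p = 0.186). Acaca ran from 2.84 (shTbp) through 4.83 to 5.59 RPKM (shTaf11), below both in 15 of 15 (-0.36, interval -0.67 to -0.05, adjusted p = 0.418). Over all genes 2.72% lay above and 1.19% below both controls in all 15. Tm7sf2 ran from 1.14 to 3.85 RPKM against 1.67 and 1.74, above both in 13 of 15. In the fit of 80 libraries each TFIID knockdown has 1 library, so its calls leave out the spread between and within set A knockdowns. Pmvk, Idi1, Tm7sf2 and Insig1 passed there as higher and Acaca, Fasn and Elovl6 as lower. The share of all genes passing in that fit is not given here.

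By size alone, 19 of 420 member values in the TFIID libraries were past 1.5-fold higher and outside both controls (4.52%, all genes 2.21%) and 11 lower (2.62%, all genes 1.49%). Insig1 accounted for 8 of the 19 and Tm7sf2 for 7, and Elovl6 for 7 of the 11. shTaf3 had 4 members past this size (Idi1, Tm7sf2, Dhcr7, Insig1), while shTaf12, the other key subunit of the design text, had Tm7sf2 higher and Acaca and Elovl6 lower. The 4 other tail knockdowns gave 1 member value higher (0.893%, all genes 1.80%) and 2 lower (1.79%, all genes 1.71%). These were Scd2 in shMed24, at 32.4 RPKM, and Elovl6 and Fads2 in shMed23, at 11.6 and 5.86 RPKM. As a group the other tail knockdowns gave no member called against control A (0.0540% of genes higher, 0.00771% lower; 2 members and 864 genes at an unadjusted p under 0.05), and Elovl6 again came lowest (11.6 to 14.6 RPKM, -0.58, interval -0.96 to -0.20, adjusted p = 0.449). Elovl6 and Acaca (4.26 to 4.99 RPKM) lay below both controls in all 4 of these libraries, and Scd2 (21.3 to 32.4 RPKM) and Hsd17b7 (2.01 to 2.56 RPKM) above both. The share of all genes on one side of both controls in all 4 libraries is not given here. Insig1 was above both in 3 (12.8 to 14.4 RPKM) and below both in shMed23 (8.13 RPKM). In the fit of 80 libraries, without spread from set A knockdowns, Pmvk and Scd2 were called higher and Acaca, Elovl6, Fads1 and Fads2 lower. The share of all genes called in that fit is not given here. Trophectoderm markers summed to 317 to 1030 RPKM over the set A replicate 2 knockdowns and 433 to 463 RPKM in control A, and their part in these values was not tested.

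The largest differences of these genes in the series lay between control groups. All 3 were transfected with a control plasmid, yet control C stood above the others for most of the pathway. Against control B, 21 members were called higher and 1 lower by limma on the 6 control libraries, where 22.6% and 26.6% of all genes were, with a median of 0.92 for members and -0.03 for all genes. Insig1 measured 57.3 and 43.3 RPKM in control C and 9.37 and 9.60 in control B, a ratio of means of 5.30 (log2 difference 2.28 ± 0.16, adjusted p = 3.26e-04). Scd1 measured 22 and 20.7 RPKM against 3.09 and 2.99, a ratio of 7.02 (2.47 ± 0.08, adjusted p = 5.80e-05). Scd2 measured 81.7 and 76.5 RPKM against 15.9 and 15.6, a ratio of 5.02 (2.26 ± 0.06, adjusted p = 5.78e-05). None of these groups overlapped, and the share of all genes without overlap between these 2 controls is not given here. Msmo1 measured 70.3 and 61.6 RPKM against 15.2 and 15.8 (2.02 ± 0.08), Cyp51 24.73 and 21.96 against 7.45 and 7.21 (1.54 ± 0.08), and Fdps 42.1 and 34.4 against 13.0 and 13.2 (1.47 ± 0.11).

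Called higher were 4 of the 5 mevalonate genes, 10 of the 11 squalene and sterol genes and 4 of the 4 desaturases, but 1 of the 4 fatty acid synthesis genes and 1 of the 3 regulators. Fdft1, squalene synthase (1.45 ± 0.07), Stard4 (1.33 ± 0.11), Dhcr7 (1.23 ± 0.11), Idi1 (1.09 ± 0.07) and Fads2 (1.07 ± 0.06) were all called higher. Acly rose to 94.6 and 86.4 RPKM (0.65 ± 0.07), but Fasn fell, at 38.4 and 40.0 RPKM (-0.33 ± 0.06, adjusted p = 0.00635). Mvk (0.23 ± 0.09), Ebp (0.12 ± 0.08), Acaca (0.24 ± 0.09) and Elovl6 (-0.04 ± 0.06) did not pass, nor did Srebf1 (0.25 ± 0.14) or Srebf2 (0.25 ± 0.10). Of the 14 members called higher whose promoter is known here, 12 held CCAAT in the 250 bases upstream, as did 5 of the 7 others. Against control A, 24 members were called higher and 1 lower, where 26.4% and 27.6% of all genes were, and the 2 comparisons share control C. Control A against control B gave 0 members higher and 1 lower (5.40% and 2.94% of all genes), that 1 being Elovl6 (-0.40 ± 0.06, adjusted p = 0.0161). Of 16 other lipid synthesis genes 9 were higher in control C than in control B and 0 lower, such as Tecr, an enzyme of fatty acid elongation (82.4 and 87.7 RPKM against 37.0 and 39.9). Abca1 was lower (0.79 and 0.84 RPKM against 1.97 and 1.92).

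**Figure D4:**
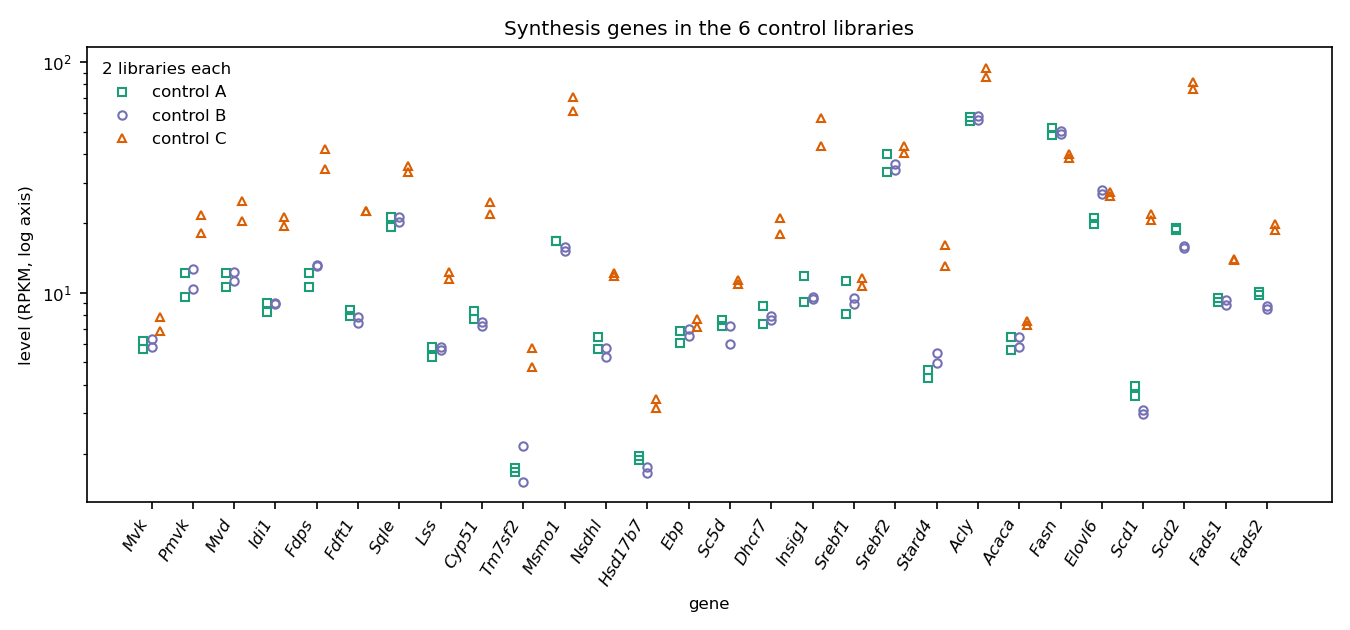
Level of each gene (RPKM, log axis) in the 2 libraries of control A (green squares), control B (violet circles) and control C (orange triangles). Control C lies above both other controls for most genes, at 57.3 and 43.3 RPKM for Insig1 against 9.14 to 11.9 in the others, while Fasn, Elovl6 and Srebf2 show little or the opposite difference.

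The control groups also differed in cell state markers. Stem cell markers summed to 2041 to 2124 RPKM in control C, 1570 to 1616 in control B and 1201 to 1323 in control A, with Nanog at 138 and 137 RPKM in control C against 60.9 and 58.4 in control B. Trophectoderm markers summed to 67.0 to 70.6, 126 to 130 and 433 to 463 RPKM. In control C against control B, 4 of 8 stem cell markers were called higher and 1 lower, and 5 of 6 trophectoderm markers lower. In control A against control B, 4 of 8 stem cell markers were called lower, 6 of 6 primitive endoderm markers higher and 3 of 6 trophectoderm markers higher. The part of these markers in the differences between controls was not tested. No label tells whether the sets differed in day, culture or passage, so set and control group cannot be told apart.

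Within set C, neither knockdown by its label gave a member called against control C. Both had 0 members and 0 genes called by limma (82 genes for shMed1 and 72 for shMed14 at an unadjusted p under 0.05, with 0 members among them). Intervals were wide, typically 0.51 on either side, and the 2 libraries of each label differed. Med1 was 7.54 RPKM in the library labelled shMed1 replicate 1 and 11.2 in replicate 2, where control C averaged 11.4. Med14 was 4.57 RPKM in the library labelled shMed14 replicate 1 and 7.38 in replicate 2, where control C averaged 7.44. Med14 was also low, at 4.98 RPKM, in the library labelled shMed1 replicate 2, and Med1, at 7.45 RPKM, in the library labelled shMed14 replicate 2.

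The synthesis genes also differed between the libraries of each label. The library labelled shMed1 replicate 2 had 26 of 28 members below both control C libraries, where 39.5% of all genes were, and 12 past 1.5-fold lower, where 3.01% of all genes were, with a median of -0.44. The library labelled shMed14 replicate 1 had 24 below both (31.2% of all genes) and 9 past 1.5-fold lower (1.83% of all genes), with a median of -0.40. Insig1 measured 20.9 and 25.3 RPKM in these libraries, Scd1 9.38 and 10.2 RPKM, Mvd 10.5 and 12.8 RPKM, and Msmo1 39.3 and 41.3 RPKM, all below control C and, except for Mvd in the first, above both control B libraries. The library labelled shMed14 replicate 2 had 16 members below both (41.3% of all genes), with a median of -0.08, and that labelled shMed1 replicate 1 had 4 (19.8%), with a median of 0.04 and 11 members above both. The share of all genes above both is not given for the latter. In these 2 libraries no member was past 1.5-fold lower (0.339% and 0.208% of all genes), and Insig1 measured 46.1 and 53.1 RPKM. Ebp lay above both controls in the first pair, at 10.1 and 9.62 RPKM against 7.67 and 7.14 in control C. With no regrouping of libraries allowed by the labels, these differences were not tested.

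**Figure D5:**
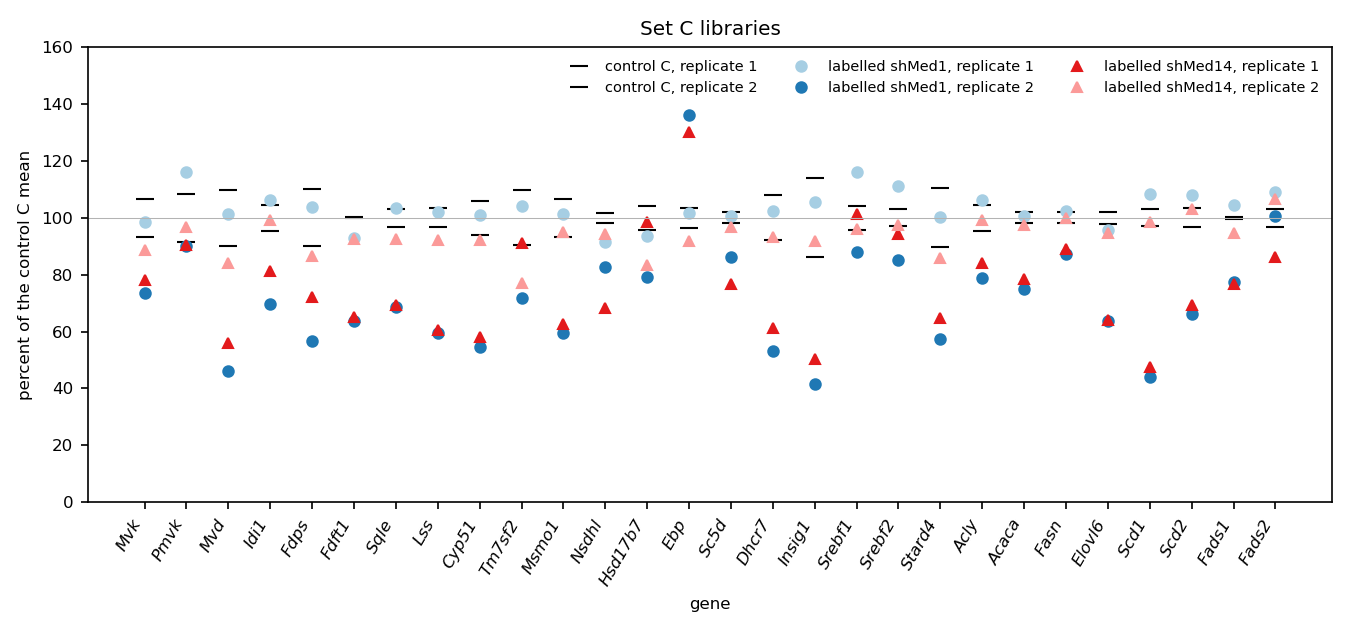
Each gene in the 4 set C knockdown libraries and 2 control libraries (black ticks) as percent of the control C mean (axis from 0). The libraries labelled shMed1 replicate 2 (dark blue) and shMed14 replicate 1 (red) lie below both controls for 26 and 24 of 28 genes, and the other 2, shMed14 replicate 2 and shMed1 replicate 1, for 16 and 4.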

How the data were processed

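Messenger RNA was sequenced from 100 libraries (KAPA stranded kit, per the labels' protocols). Per the submitters' processing notes, the authors used TopHat2 and the mm9 build; the deposited values are RPKM per RefSeq transcript. The counter, its strand setting and its filters were not given in the sources used here. From these values, 34995 lines per table were named by RefSeq and GENCODE tables, and each of 24206 genes took its transcript with the highest mean RPKM. Tests were run with limma 3.58.1 (R 4.3.3, limma-trend, two-sided) on log2(RPKM + 1), which understates changes of low genes, for 12974 genes with at least 1 RPKM in 2 libraries; fits were tested on simulated data. Set B used 52 libraries, set A 22, set C 6 and the control comparisons, added after seeing the levels, 6. Groups came from labels. Libraries of a group are not said to be separate cultures, so p-values measure only the spread between these libraries. Without a spike-in, a shift of the whole transcriptome would not show in RPKM, and fewer cells of a type cannot be told apart from less RNA per cell. The members and lists were chosen with earlier results of these data known. All members are named; values per library are given for Med15, the kinase module and the set B knockdowns with most members called, for at most the 4 members with the largest called change per direction and the 3 regulators, with ties kept. Alternatives changed the pseudocount, filter, scaling, libraries, reference and replicate block.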

Additional observations from a re-analysis of the deposited data

Results flagged for a closer look

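In groups of 4 knockdowns (84 groups of member values examined, of which chance would single out about 1 in 20), 2 values stood apart from the other 3. Mvd was at 12.5 RPKM in shCcnc, where the other kinase module knockdowns ran from 11.5 to 11.6 RPKM. Acaca was at 4.15 RPKM in shMed30, where the other upper tail knockdowns ran from 5.93 to 6.21 RPKM; both shMed30 libraries were low. No cause was tested for either value.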

How the results depend on the processing

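With a pseudocount of 0.1, no filter on low values, upper-quartile or median-ratio scaling, the set B counts (215 higher, 69 lower) stayed within 199 to 228 and 64 to 75, and no scaling moved the median of all genes by over 0.1. Leaving out 1 library of each knockdown or of control B gave 154 to 188 higher and 55 to 60 lower. One fit of all 100 libraries as labelled gave 39 and 11; the cause was not tested. With the other 24 knockdowns as reference, 157 were higher and 145 lower. The share of all genes called in these alternatives is not given here. Single calls were followed only in the set B knockdowns described on their own, where 12 reversed with that reference. These were Scd2 in shCcnc (-0.055), shCdk8 (-0.295) and shMed13 (-0.33), and Elovl6 in shCcnc (0.28) and shGcn5 (0.16). Msmo1 reversed in shCdk8 (-0.044), shMed10 (-0.102) and shMed19 (-0.042), and Scd1 in shCdk8 (-0.041) and shMed13 (-0.059). Insig1 reversed in shMed28 (-0.024) and Hsd17b7 in shMed19 (-0.022). Reversals in the remaining set B knockdowns were not counted, and the cause was not tested. The replicate block gave 237 and 78 in set B. Deviations of control B and each knockdown with the same number correlated at 0.039 to 0.169 over genes (16 of 25 above 0.1), so the numbers were not taken to pair the samples.

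In set A the comparisons kept 0 members called under all alternatives (both replicates as labelled, with or without the replicate block, included) except the fit of 80 libraries. There shMed15 had 1 member lower than control A (Acaca), 1 higher than the other tail knockdowns (Stard4) and 2 lower than TFIID (Mvk, Idi1), other tail had 2 higher and 4 lower, and TFIID 4 higher and 3 lower. The single-library counts of 20 higher and 13 lower became 11 and 15 without control A replicate 1, and 29 and 15 without replicate 2. The kinase and upper tail comparisons had 0 under every alternative run. For set C, control B as reference in 1 fit of all libraries gave 41 higher and 2 lower, with 0 under the rest, replicate block included. Control C against control B kept 20 to 24 higher; its 1 lower (Fasn) became 0 without control B replicate 1. Control A against control B had 1 higher under either scaling, and its 1 lower (Elovl6) became 0 with the replicate block, without control A replicate 2 and without either control B replicate. Set A has 1 usable library per knockdown, which limits its precision. The share of all genes passing in its fit of 80 libraries is not given here, so the members passing there have no background.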
